A study of Mus musculus with 7 samples.

Results

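The 85 genes described here carry the symbols given to nuclear-encoded subunits of the mitochondrial respiratory chain and the ATP synthase. They were picked out by symbol (those starting with Ndufa, Ndufb, Ndufc, Ndufs, Ndufv, Uqcr, Cox4, Cox5, Cox6, Cox7, Cox8 or Atp5) from 19937 genes that had a probe set with 1 symbol. There were 43 genes of complex I, 8 of complex III, 17 of complex IV and 17 of complex V, read by 109 probe sets, and each gene is given by the probe set with the highest mean over the 7 arrays. Of the 85 genes, 68 encode subunits of wide expression, 8 encode isoforms known from restricted tissues or from hypoxia, and the others are 7 assembly factors of complex I (Ndufaf genes), Ndufa4, whose protein is now placed in complex IV, and Cox7a2l, a factor that joins complexes III and IV. The symbols were set beside an array contrast seen in these data, in which reconRAG1KO replicate 4 and reconSCID replicate 2 stand against the other 5 arrays. That contrast took part in choosing the genes, so its values are a description here and carry no test.

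The arrays measured total RNA of medullary thymic epithelial cells (MECs) with high MHC class II, the thymic cells that show developing T cells the antigens of other tissues. All mice were of the NOD strain. The reconRAG1KO group (4 samples) carried a null allele of the recombinase gene RAG1, and the reconSCID group (3 samples) carried the SCID mutation of Prkdc, which encodes the DNA-dependent protein kinase. Pups of both groups, 2 to 4 days old, were irradiated with 200 rad and received bone marrow into the peritoneum 6 h later, and the thymus was taken 6 to 8 weeks after the transfer. No unirradiated mouse and no mouse of intact genotype was among the samples, both alleles are present in every cell of the host and not in the epithelium alone, and the sources used here do not give the donor's genotype, the sex of the mice or the number of thymi in a sample. The labels call the samples biological replicates, and p-values measure the spread between these samples.

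The respiratory chain passes electrons from NADH and succinate to oxygen through complexes I to IV in the inner mitochondrial membrane, pumps protons as it does so, and the ATP synthase (complex V) lets the protons return to make ATP. Complexes I, III, IV and V are built from subunits encoded in the nucleus together with a few encoded in mitochondrial DNA, so the nuclear genes must supply their products in matched amounts. Some complex IV subunits exist as paired isoforms, with 1 copy used in most tissues and another in muscle, testis or lung.

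Promoters are shown for 5 genes that mark the range of the results below: Cox6a1, Atp5k and Ndufb6, which differed greatly between the array sets, Ndufa11, which differed little, and the testis isoform Cox7b2, which was on the opposite side. Each run is the 250 bases before the start site in RefSeq (build GRCm38.p6), 5′ to 3′ on the gene's own strand, and capitals mark matches to any of 4 motifs searched on both strands. The motifs were the site of the mitochondrial regulator NRF1 (given by name alone, its matches standing in capitals in Cox6a1, Atp5k and Ndufa11), CCGGAAG (a core site of ETS factors), AAGATGGC (YY1) and TATAAA (the TATA box). The runs lie at chr5:115348959-115349208 for Cox6a1, chr5:108434400-108434649 for Atp5k, chr4:40279422-40279671 for Ndufb6, chr17:56717512-56717761 for Ndufa11 and chr5:71548206-71548455 for Cox7b2. Ndufa11 is on the plus strand and the other 4 are on the minus strand.
Cox6a1: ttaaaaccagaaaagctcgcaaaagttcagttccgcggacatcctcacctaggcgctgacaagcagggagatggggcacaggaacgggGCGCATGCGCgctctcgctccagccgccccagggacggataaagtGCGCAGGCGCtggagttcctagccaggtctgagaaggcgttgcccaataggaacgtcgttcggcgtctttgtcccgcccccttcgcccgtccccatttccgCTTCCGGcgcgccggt
Atp5k: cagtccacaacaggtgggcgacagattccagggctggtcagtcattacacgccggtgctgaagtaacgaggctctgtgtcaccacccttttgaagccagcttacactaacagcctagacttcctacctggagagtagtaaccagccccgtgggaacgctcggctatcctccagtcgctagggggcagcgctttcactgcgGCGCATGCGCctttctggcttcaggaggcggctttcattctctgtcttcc
Ndufb6: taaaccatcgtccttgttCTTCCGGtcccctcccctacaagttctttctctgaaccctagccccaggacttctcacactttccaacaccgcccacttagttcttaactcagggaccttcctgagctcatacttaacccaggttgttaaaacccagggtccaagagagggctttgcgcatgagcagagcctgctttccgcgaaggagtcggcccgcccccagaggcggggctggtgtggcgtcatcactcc
Ndufa11: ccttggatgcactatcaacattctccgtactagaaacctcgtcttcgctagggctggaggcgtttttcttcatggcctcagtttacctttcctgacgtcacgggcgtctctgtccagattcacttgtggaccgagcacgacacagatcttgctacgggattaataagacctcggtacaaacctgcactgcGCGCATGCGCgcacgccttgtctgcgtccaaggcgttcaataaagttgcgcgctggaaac
Cox7b2: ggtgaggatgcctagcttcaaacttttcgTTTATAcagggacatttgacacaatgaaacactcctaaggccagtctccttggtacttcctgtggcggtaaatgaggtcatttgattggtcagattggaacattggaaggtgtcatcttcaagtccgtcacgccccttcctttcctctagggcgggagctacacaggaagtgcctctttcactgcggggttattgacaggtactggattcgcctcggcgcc
The Cox6a1 promoter held 2 NRF1 matches, which start 162 and 117 bases before the start site, and an ETS match on the reverse strand at 16 bases. Atp5k had its NRF1 match 50 bases and Ndufa11 60 bases before the start site. Atp5k is also counted with the ETS motif in the longer window used next, by a match that does not lie wholly within the run shown. The reverse-strand matches were to ETS in Ndufb6, 232 bases before the start, and to TATAAA in Cox7b2, 221 bases before it.

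A promoter of 300 bases (250 before and 50 after the start) was found for 70 of the 85 genes and for 27025 genes in all. The NRF1 motif was in 16 of the 70 (22.9%) against 5.19% of all promoters, the ETS motif in 16 (22.9%) against 9.93%, YY1 in 10 (14.3%) against 3.19% and TATAAA in 8 (11.4%) against 15.7%. Matches of different motifs overlapped in 0 of the 70 promoters. The array contrast described next had a median of -0.89 log2 units in genes with the NRF1 motif and -1.17 in those without it, and of -1.38 with the ETS motif and -1.01 without it. For YY1 the medians were -1.39 with the motif and -1.05 without it, and for TATAAA -0.52 and -1.11. The 8 genes with TATAAA include Cox7b2 and Cox8b, isoforms of restricted tissues, and Atp5l, whose probe sets disagree (below). Any part of the motifs in the contrast was not tested. A match is a run of letters and no evidence of binding.

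The arrays fell into the same sets over all probe sets. Over log2 values the correlation was 0.972 between reconRAG1KO replicate 4 and reconSCID replicate 2, 0.976 to 0.990 within the other 5, and 0.922 to 0.947 across. The labels name no batch. The median intensity per array ran from 88.6 to 96.3. Aire, the regulator of tissue antigens in these cells, measured 9.73 to 11.93 on the log2 scale and the epithelial adhesion gene Epcam 8.91 to 10.35. Markers of other cell types also gave signal, as described below, and the purity of the samples was not tested. In 16049 probe sets (46.2%) at least 2 arrays held an identical value, which was so for 26 of the 85 chosen probe sets and can make a spread look smaller.

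Most respiratory chain genes were lower in the pair of arrays than in the other 5, and the difference was of similar size in both groups. Values below are log2 intensities, and a difference is the mean of the 2 arrays minus the mean of the 5. The median difference over the 85 genes was -1.06 (quartiles -1.96 and -0.39), where over all 19937 genes it was 0.12. Of the 85, 78 were lower and 7 higher, and both arrays lay below each of the other 5 in 71, a pattern found in 20.1% of all genes. The share depends on level. Among genes with a mean above 8 in the 5 arrays it was 53.3% of all genes and 92.9% of the 70 respiratory chain genes there. Both arrays lay above each of the 5 in 6 of the 85, against 37% of all genes, and the arrays overlapped in the remaining 8. A difference beyond -1 was found in 46 of the 85 (5.22% of all genes) and one beyond 1 in 0 (1.31% of all genes). Set against its mean in the other replicates of its own group, reconRAG1KO replicate 4 had a median difference of -1.06 and reconSCID replicate 2 of -1.08. Across the 85 genes these differences correlated at r = 0.94 (rho = 0.93), a description over genes that share the same arrays, and had the same sign in 82. The pair of arrays differed from each other by a median of 0.19, by over 1 only in Atp5k, and the 5 arrays had a median range of 0.22 with a largest of 0.55.

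**Figure D1:**
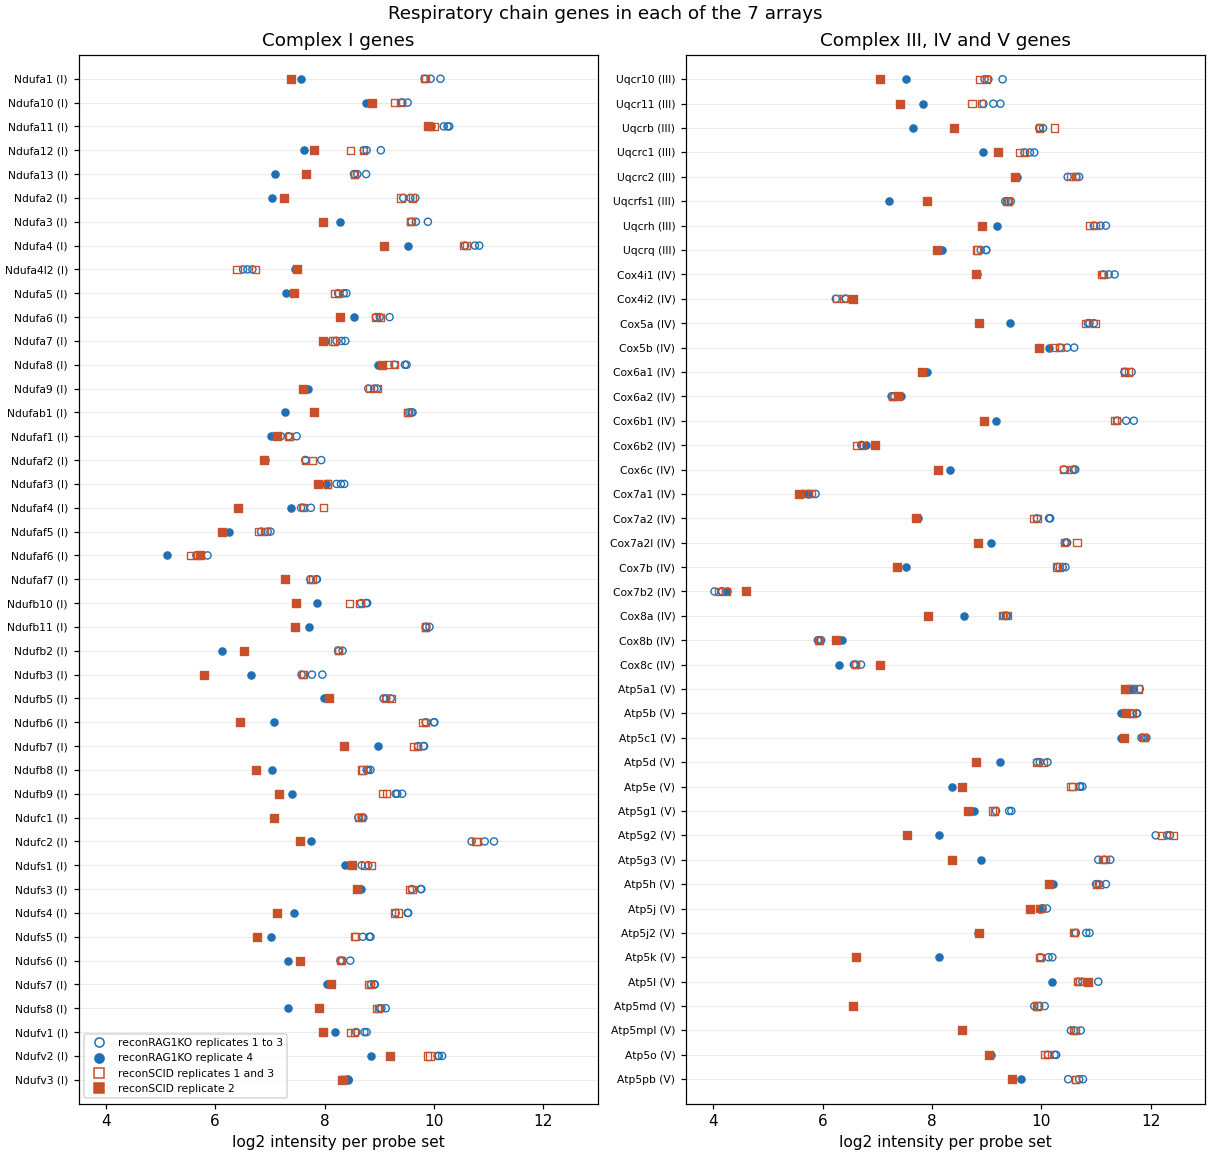
Log2 intensity (x axis) of each of the 85 genes (rows, with the complex in brackets) in each array. Blue circles are reconRAG1KO and red squares reconSCID, with filled symbols for reconRAG1KO replicate 4 and reconSCID replicate 2. In 71 rows both filled symbols lie to the left of all 5 open symbols, and in 6 rows, all of them isoforms of restricted use, both lie to the right.

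Complex I takes electrons from NADH. Its core subunits, which carry the flavin and the iron-sulphur clusters, were lower in 6 of 6 genes, with a median difference of -0.89. The smallest of these was in Ndufs1, the largest core subunit, with 8.51, 8.68, 8.80 and 8.37 in reconRAG1KO replicates 1 to 4 and 8.86, 8.50 and 8.74 in reconSCID replicates 1 to 3 (difference -0.28). All values below follow this order of samples. Ndufs8, an iron-sulphur subunit, differed by -1.41 and Ndufv1, the flavin-binding subunit, by -0.53.

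The accessory subunits, which surround the core and are needed for assembly and stability, were lower in 28 of 28 genes, with a median of -1.36 and a range from -3.20 to -0.03. Ndufc2, an accessory subunit of the membrane arm, measured 10.93, 10.69, 11.10 and 7.76 in reconRAG1KO and 10.77, 7.55 and 10.79 in reconSCID. The pair was 9.22-fold lower than the rest (difference -3.20), without overlap. Ndufb6, also of the membrane arm, ran from 9.80 to 10.01 in the 5 arrays and measured 7.07 and 6.45 in the pair, which was 8.79-fold lower (difference -3.14). Ndufab1, the mitochondrial acyl carrier protein, measured 9.55, 9.61, 9.59 and 7.28, and 9.51, 7.81 and 9.51 (difference -2.01). Its other probe set differed by 0.53.

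At the other end of complex I stood Ndufv3 and Ndufa11. Ndufv3, a small subunit beside the flavin site, measured 8.44, 8.43, 8.42 and 8.42, and 8.34, 8.32 and 8.35, and differed between the array sets by -0.03. Ndufa11, a membrane-arm subunit, measured 10.18, 10.25, 10.28 and 9.94, and 10.01, 9.89 and 9.93 (difference -0.21). The array sets overlapped in both genes. The 7 assembly factors, which help to build the complex and leave it, differed less than the accessory subunits, with a median of -0.52 and a range from -0.83 in Ndufaf2 to -0.25 in Ndufaf3. Ndufaf3 measured 8.30, 8.22, 8.36 and 8.02, and 8.06, 7.88 and 8.06. Ndufaf6 was the only one in which the array sets overlapped, with 5.66, 5.66, 5.86 and 5.11, and 5.55, 5.73 and 5.66.

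Complex III hands electrons from ubiquinol to cytochrome c, and 8 of its 8 genes were lower in the pair of arrays with no overlap, at a median of -1.55. Uqcrh, the hinge protein beside cytochrome c1, measured 11.18, 10.96, 11.08 and 9.18, and 10.98, 8.92 and 10.88 (difference -1.97). Uqcrb, a small subunit needed for ubiquinone binding, measured 9.96, 9.97, 10.03 and 7.65, and 9.96, 8.41 and 10.24. Both arrays of the pair stood more than 1 log2 unit below the rest in these genes. The differences were smallest in Uqcrc1, a core protein, and in the small subunit Uqcrq. Uqcrc1 measured 9.69, 9.87, 9.79 and 8.93, and 9.69, 9.20 and 9.60 (difference -0.66). Uqcrq measured 8.99, 8.99, 8.89 and 8.18, and 8.82, 8.09 and 8.83 (difference -0.77). The Rieske iron-sulphur protein gene Uqcrfs1 differed by -1.82.

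Complex IV reduces oxygen, and its nuclear subunits stabilise and regulate a core that mitochondrial DNA encodes. The 10 genes of wide expression, Cox7a2l among them, were all lower without overlap, with a median of -2.29 and a range from -3.70 to -0.35. Cox6a1, a regulatory subunit, measured 11.65, 11.53, 11.52 and 7.91, and 11.52, 7.82 and 11.60. Its 5 arrays averaged 11.56 ± 0.06 (SD, n = 5) and the pair 7.87 (difference -3.70). Cox7b measured 10.39, 10.30, 10.44 and 7.53, and 10.27, 7.36 and 10.33 (difference -2.90). Cox6b1, which joins the monomers of the complex, measured 11.69, 11.39, 11.55 and 9.17, and 11.38, 8.95 and 11.34 (difference -2.41). Cox5b, which binds zinc, was the least affected of them, with 10.60, 10.34, 10.47 and 10.14, and 10.34, 9.95 and 10.23 (difference -0.35).

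The isoforms of restricted tissues did not share this difference. Of the 8, 7 were higher and 1 lower in the pair of arrays as deposited, with a median of 0.18 (0.12 for all genes). After centring each array on its median 2 were lower, and the median was 0.08 (0.01 for all genes). As deposited, both arrays of the pair lay above each of the others in 6 of the 8. With centring, that held for only 2 respiratory chain genes in all, and with quantile normalization for 9. Cox6a2, the heart and muscle form beside Cox6a1, measured 7.31, 7.26, 7.27 and 7.43, and 7.27, 7.38 and 7.27 (difference 0.13). Cox4i2, a form known from lung and from hypoxia, measured 6.42, 6.42, 6.24 and 6.51, and 6.25, 6.55 and 6.39 (difference 0.19). Its partner Cox4i1 measured 11.34, 11.13, 11.23 and 8.82, and 11.10, 8.81 and 11.13, a difference of -2.37. Thus the pair of arrays lay just above the range of the others in Cox4i2 and far below it in Cox4i1.

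In Cox8b, known from heart, muscle and brown fat, the values were 5.91, 5.97, 5.94 and 6.36, and 5.94, 6.25 and 5.93 (difference 0.37). Its partner Cox8a measured 9.35, 9.31, 9.37 and 8.59, and 9.29, 7.93 and 9.38 (difference -1.08). The testis forms Cox6b2, Cox7b2 and Cox8c differed by 0.18, 0.29 and 0.06. Cox7b2 measured 4.15, 4.02, 4.16 and 4.25, and 4.09, 4.59 and 4.23, and Cox6b2 measured 6.71, 6.71, 6.71 and 6.79, and 6.72, 6.95 and 6.62. The pair of arrays did not move together in Cox8c, with 6.70, 6.57, 6.60 and 6.30, and 6.60, 7.04 and 6.60.

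The muscle form Cox7a1 was the 1 isoform that was lower, with 5.87, 5.73, 5.64 and 5.73, and 5.73, 5.56 and 5.79 (difference -0.11), and the array sets overlapped. Its partner Cox7a2 measured 10.16, 9.92, 10.14 and 7.75, and 9.92, 7.70 and 9.86 (difference -2.28). Ndufa4l2, a relative of Ndufa4 known for its induction in hypoxia, had the highest difference of the 85 genes, with 6.59, 6.68, 6.51 and 7.46, and 6.40, 7.49 and 6.74 (difference 0.88). Ndufa4 itself measured 10.75, 10.57, 10.83 and 9.53, and 10.59, 9.08 and 10.54 (difference -1.35). The 8 isoforms ran from 4.02 to 7.49 where the array medians lay at 6.47 to 6.59, and whether they stood above background was not tested.

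**Figure D2:**
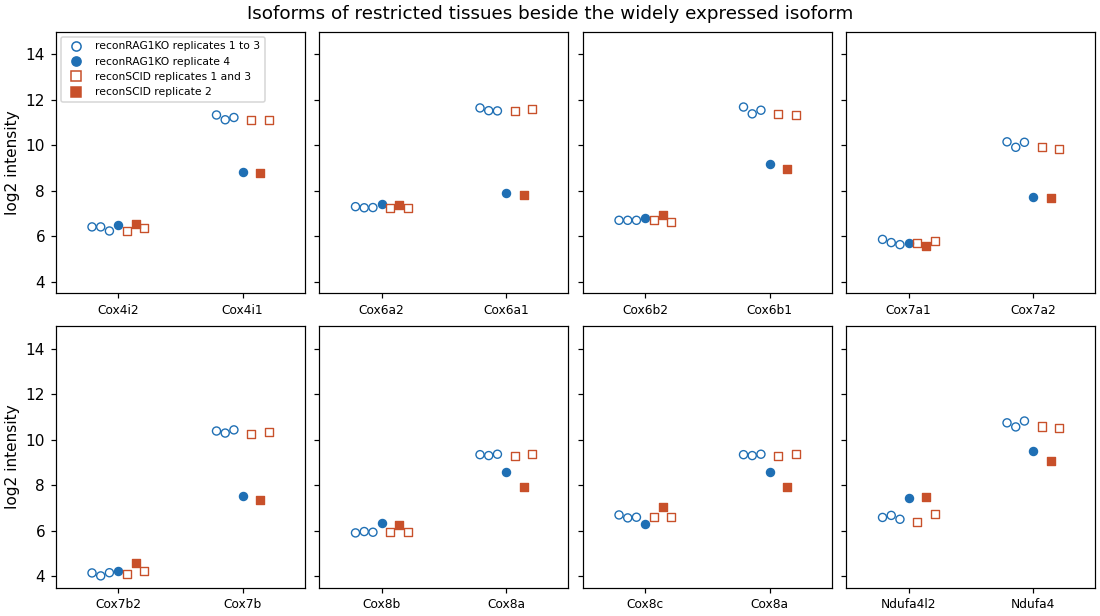
Log2 intensity (y axis) of 8 isoforms of restricted use (left in each panel) beside the isoform of wide expression (right), 1 point per array, with Cox8a drawn with both of its partners. Filled symbols are reconRAG1KO replicate 4 and reconSCID replicate 2, which lie well below the other arrays in each right-hand gene. In the deposited values they lie above the other arrays in 6 of the 8 left-hand genes, most clearly in Ndufa4l2. With array medians centred, both lay above the others in only 2 respiratory chain genes in all. Levels of different probe sets are not comparable with each other.

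All 17 genes of complex V were lower in the pair of arrays, 14 without overlap, and values within most parts of the enzyme spread widely. The genes of the catalytic head had differences of -0.11 in Atp5a1 (subunit α), -0.19 in Atp5b (subunit β, the catalytic site) and -0.39 in Atp5c1 (the rotating shaft γ). Atp5c1 measured 11.86, 11.92, 11.83 and 11.46, and 11.87, 11.51 and 11.88. Atp5a1 measured 11.62, 11.69, 11.80 and 11.68, and 11.78, 11.52 and 11.61, with the array sets overlapping. The small shaft subunits Atp5d (δ) and Atp5e (ε) differed by -0.96 and -2.20.

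In the peripheral stalk, which holds the head still, Atp5pb, Atp5h and Atp5o differed by -1.08, -0.88 and -1.10. The coupling factor gene Atp5j differed by -0.13, with 9.98 and 9.80 in the pair and 9.96 to 10.10 in the others, which overlap. Atp5h measured 10.22 and 10.14 in the pair and averaged 11.06 in the 5 arrays, whose highest value was 11.18. The proton-carrying c ring is encoded by 3 genes, of which Atp5g1 differed by -0.54, Atp5g3 by -2.51 and Atp5g2 by -4.44. Atp5g2 measured 12.35, 12.09, 12.30 and 8.12, and 12.19, 7.54 and 12.41, which is 21.8-fold lower in the pair by this probe set. Its other probe sets differed by only -0.29 and 0.37. The small membrane subunits had a median of -2.07. Among them Atp5md, which holds dimers of the enzyme together, measured 10.06, 9.87, 9.96 and 6.55, and 9.92, 6.55 and 9.93 (difference -3.40). Atp5l, subunit g, measured 11.04, 10.67, 10.75 and 10.20, and 10.66, 10.85 and 10.70 (difference -0.24). For both genes, other probe sets gave differences on both sides of 0, as described next.

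The value of a gene depended on its probe set in several of these cases. Of the 17 genes with more than 1 probe set, 11 were lower by each of them and 6 were not, and 96 of the 109 probe sets were below 0. For Atp5g2 the probe set used gave -4.44 and the others -0.29 and 0.37. For Atp5md they gave -3.40, -2.99 and 0.33, and for Ndufab1 -2.01 and 0.53. Atp5l had the opposite order, with -0.24 by the probe set used and -3.75, -1.17, -4.08 and 0.62 by the others, and its probe set of -3.75 had the higher mean over the 5 arrays (11.05 against 10.77). Atp5h gave -0.88, -0.95 and 0.30, and Atp5g1 gave -0.54 and 0.04. Many small chain subunits have pseudogene copies, and which copy each probe set reads was not analysed here. These 6 genes are uncertain in sign, and the same doubt holds for the size of the difference in the other genes. Size could also differ where the sign was the same. Ndufb11 gave -2.28 and -0.85, Atp5pb -1.08 and -0.37 and Ndufs3 -1.02 and -0.06, while Cox6c gave -2.30 and -2.71. Genes with 1 probe set could not be compared in this way.

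**Figure D3:**
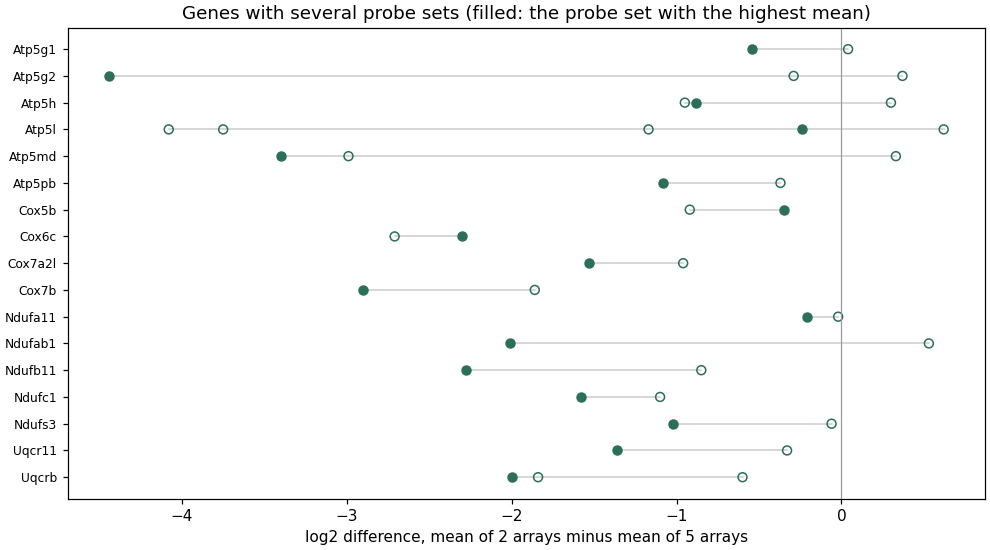
Log2 difference, mean of 2 arrays minus mean of 5 (x axis), for each probe set of the 17 genes that have more than 1. Filled circles are the probe sets used in the text and open circles the others. The widest spread within a gene is 4.81 log2 units, in Atp5g2, and 6 genes have probe sets on both sides of 0.

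The difference between the array sets was larger at higher levels, in the 85 genes and in all genes. Among the 85, the difference correlated with the mean of the 5 arrays at r = -0.57 (rho = -0.52, n = 85 genes), and among all genes at r = -0.48 (rho = -0.48, n = 19937). The 5 arrays enter both measures, so part of such a relation is built in. Of the genes whose mean in the 5 arrays was above 9, the 2159 of the whole array had a median of -0.50 and the 52 of the respiratory chain -1.64. Above 10, the medians were -0.67 over 746 genes and -1.80 over 30. Both arrays lay below each of the other 5 in 63.9% of all genes above 9 and in 92.3% of those of the respiratory chain. Above 10 the shares were 72.5% and 86.7%. Gene length showed little relation to the difference, with r = 0.07 (rho = 0.09) over the 85 genes and 0.02 (rho = -0.01) over 19855 genes.

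Genes that work with the chain but fall outside its symbols gave mixed values. Of 10 measured genes of complex II, the cytochromes c and c1 and the carriers of phosphate and adenine nucleotides, 9 were lower without overlap, with differences from -2.33 to 0.04 over the 10. The ADP/ATP carrier Slc25a5 differed by -2.22, and Atpif1, the inhibitor of the ATP synthase, by -2.33. Cyc1, cytochrome c1, differed by -0.45 and Sdhc, a membrane anchor of complex II, by 0.04. For the genes of mitochondrial DNA, 0 of 13 had a probe set with 1 symbol. Assembly factors under other symbols had a median of -0.20 with 29 of 37 lower, from -2.57 in the copper chaperone Cox17 to 0.69 in Sdhaf4, an assembly factor of complex II. Uqcc2 differed by -1.57, and the smallest differences were -0.02 in Ttc19 and -0.00 in Timmdc1.

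In the citric acid cycle 14 of 16 genes were lower (median -0.36), and in glycolysis 8 of 13 (median -0.16). For protein import it was 16 of 20 (median -0.29), among them Tomm7 (-2.20), a small subunit of the outer membrane translocase, and its receptor Tomm20 (-2.25). Among regulators of mitochondrial genes 10 of 18 were lower (median -0.03), from -0.66 in Tfb1m to 0.49 in Ppargc1a, the coactivator PGC-1α. Ribosomal protein genes also differed, with a median of -1.30 and 61 of 64 lower for the cytosolic ribosome and -0.48 and 63 of 77 lower for the mitochondrial one. The lowest were Rps29 (-4.11) and Mrpl42 (-3.13). The respiratory chain genes were therefore not the only class with differences of this size, and no test of one class against another was made.

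**Figure D4:**
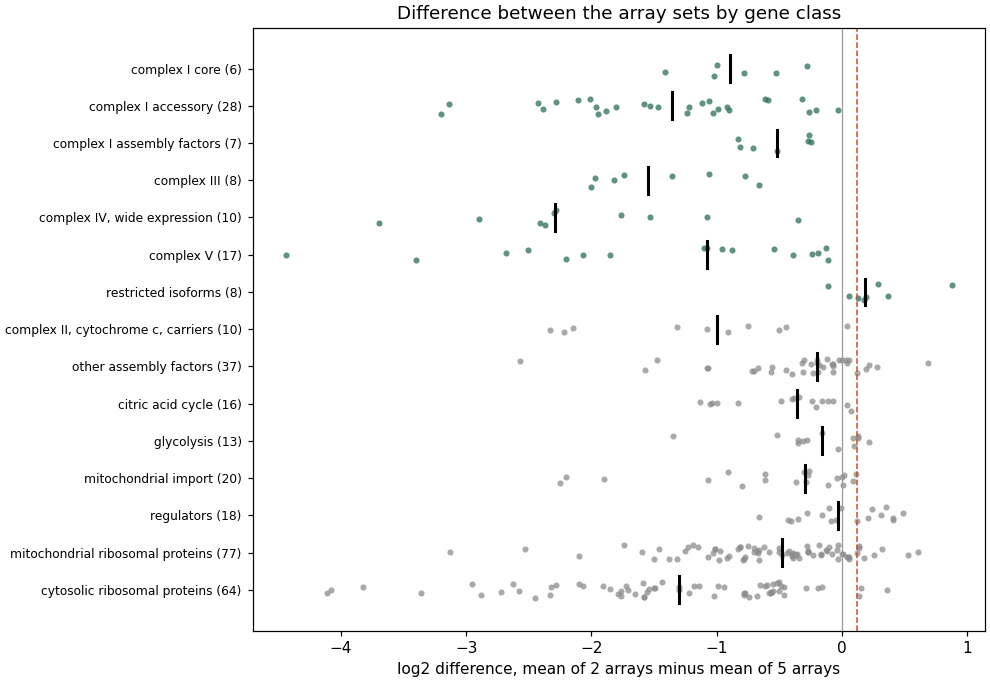
Log2 difference, mean of 2 arrays minus mean of 5 (x axis), for each gene in 7 classes of respiratory chain genes (green) and 8 other classes (grey), with the number of genes in brackets. Black bars are class medians, the solid line is 0 and the dashed line is the median of all genes (0.12). The class medians run from -2.29 in complex IV genes of wide expression to 0.18 in isoforms of restricted use, and the cytosolic ribosomal proteins lie at -1.30.

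Markers of several cell types moved with the same pair of arrays. The summed intensity of 14 medullary epithelium markers was 20769 to 23533 in the pair and 8250 to 17481 in the other 5, and that of 10 endothelium and fibroblast markers 3953 to 6592 against 1520 to 1912. Cortical epithelium markers (8 of 8 measured) summed to 4981 to 9121 against 3219 to 3877. The sums were lower in the pair for dendritic cells and macrophages (12 of 13 markers measured, 5454 to 7088 against 10162 to 18667), thymocytes and T cells (12 of 13 measured, 1718 to 1994 against 2444 to 4427) and neutrophils (10 of 10 measured, 874 to 1137 against 1173 to 9582). For B cells (11 of 12 measured) the sums overlapped, with 1241 to 1398 against 1194 to 4776. The markers of a list did not all move together. Both arrays of the pair lay above the other 5 in 7 of 14 medullary markers and below in 2. These counts were 6 and 1 of 8 for cortical markers, and 9 and 1 of 10 for endothelium and fibroblasts. Both lay below the other 5 in 7 of 12 dendritic cell and macrophage markers. That held for 8 of 12 thymocyte and T cell markers, with 1 above, and for 4 of 10 neutrophil markers. Heat shock genes summed to 21253 to 24712 in the pair against 29862 to 43237, and immediate early genes to 26942 to 27512 against 21605 to 26347. By gene, 9 of 9 heat shock genes were lower in the pair. The 12 immediate early genes split, with 6 lower and 6 higher, so their sum does not stand for the list. Of all these genes 0 had a value of 0. The part of these cells and of these stress genes in the differences of the respiratory chain genes was not tested, and in a bulk sample fewer cells of a type and less RNA per cell cannot be told apart.

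The comparison that the study set up is reconSCID against reconRAG1KO, which asks how these cells differ where DNA-dependent protein kinase is defective. No respiratory chain gene passed the test. With limma and Benjamini-Hochberg adjustment over 34760 probe sets, 0 of 85 were called at 0.05 in either direction (background 0%), with a smallest adjusted p of 1. At an unadjusted 0.05, 0 of 85 were lower (1.13% of all probe sets) and 0 higher (2.2%). Each group holds 1 array of the pair, and the contrast of the pair took part in choosing these genes. Their spread within groups is therefore large by choice: the SD of their median was 0.57 within groups and 0.06 within array sets. For most of them this fit could not detect a moderate group difference, so its counts of 0 do not show that the groups are alike. The median difference, reconSCID minus reconRAG1KO, was -0.17 over the 85 genes and -0.01 over all genes, and 73 of 85 were below 0. This median rests on which of the pair of arrays is counted: it was 0.18 without reconSCID replicate 2 and -0.44 without reconRAG1KO replicate 4. The pair holds 1 of 3 reconSCID and 1 of 4 reconRAG1KO arrays.

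With the array set as a block, limma again called 0 of 85, with a smallest adjusted p of 0.2624. The median was -0.09, 68 of 85 were below 0, and it was -0.08 among the 5 arrays and -0.07 between the 2. In the 5 arrays alone 6 of 85 were lower at an unadjusted 0.05, against 6.63% of all probe sets, and 0 were higher, against 8.87%. In the fit of all 7 arrays with the block, 10 genes were lower in reconSCID at an unadjusted 0.05, where 5.77% of all probe sets were. In that fit 0 were higher, where 6.53% of all probe sets were. The count of 10 became 4 without reconRAG1KO replicate 3, 5 without its replicate 1 and 18 without its replicate 2. It was 6 (with 1 higher) without reconSCID replicate 1 and 5 without its replicate 3. Complex I symbols were carried by 9 of the 10 and by 43 of the 85, and the 9 include Ndufa4 and the assembly factor Ndufaf3. Ndufb9, an accessory subunit of the membrane arm, measured 9.33, 9.30, 9.42 and 7.41 in reconRAG1KO and 9.06, 7.17 and 9.13 in reconSCID. Its difference with the block was -0.25 (95% interval -0.39 to -0.11, limma adjusted p = 0.2624), and each reconSCID array lay below each reconRAG1KO array of its own set. Ndufs5, an accessory subunit of the intermembrane space side, measured 8.70, 8.84, 8.82 and 7.02, and 8.56, 6.77 and 8.55, with a difference of -0.24 (-0.38 to -0.09, limma adjusted p = 0.2724).

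Uqcr11, a small subunit of complex III, was the 1 gene of the 10 outside complex I by symbol, with 9.12, 8.94, 9.25 and 7.84, and 8.91, 7.42 and 8.73. Its difference with the block was -0.32 (-0.56 to -0.08, limma adjusted p = 0.3153). Ndufa11 and Ndufaf3, whose values are given above, differed by -0.21 (-0.38 to -0.03) and -0.20 (-0.35 to -0.05) with the block and by -0.22 each without it. Ndufv1, the flavin-binding subunit, measured 8.77, 8.58, 8.73 and 8.19, and 8.48, 7.98 and 8.55, a difference of -0.19 (-0.36 to -0.02). None of the 10 passed adjustment. Ndufv3 was the only one of the 85 genes in which all reconSCID arrays lay below all reconRAG1KO arrays, a pattern of 1.54% of all genes, and its difference was -0.09 (-0.26 to 0.08 with group alone). In 0 of the 85 did all reconSCID arrays lie above, against 1.23% of all genes.

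Among genes above 0 in reconSCID with group alone, those with the smallest p were Cox8c (0.21, 95% interval -0.16 to 0.57), Cox7b2 (0.16, -0.17 to 0.48) and Ndufs1 (0.11, -0.23 to 0.45). All of these intervals include 0. Without reconSCID replicate 2, Cox8c was at 0.06 and Cox7b2 at 0.02, and Ndufs1 was at 0.03 without reconRAG1KO replicate 4 or without reconSCID replicate 1. Uqcrb had a difference of 0.13 (-1.59 to 1.86) with group alone and, blocked on the array set, the highest of the 85 (0.30, -0.06 to 0.66, limma adjusted p = 0.4641). Its other probe sets gave -0.01 and 0.29 with that block. With group alone, smaller values were found for Ndufaf6 and Atp5l (0.07 each) and for Cox6b2 (0.03). Each of these 3, and Cox8c, was negative in the 5 arrays alone. Between the groups, within replicates of the larger set, B cell markers summed to 2533 to 4776 in reconSCID and 1194 to 1378 in reconRAG1KO, dendritic cell and macrophage markers to 13881 to 18667 and 10162 to 11699, and heat shock genes to 35968 to 43237 and 29862 to 31819. Lower in reconSCID were the sums of medullary markers (8250 to 11968 against 13881 to 17481), cortical markers (3219 to 3441 against 3582 to 3877) and neutrophil markers (1173 to 1703 against 3144 to 9582). Their part in the small differences of the respiratory chain genes was not tested.

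**Figure D5:**
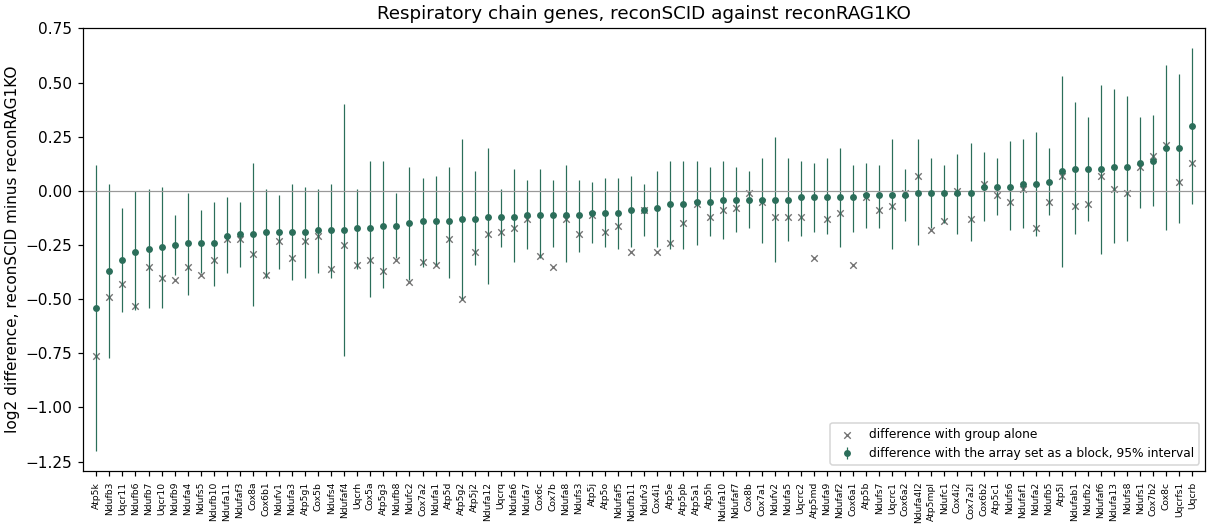
Log2 difference, reconSCID minus reconRAG1KO (y axis), for each of the 85 genes, ordered by the fit with the array set as a block. Green points with 95% intervals are that fit and grey crosses the fit with group alone. With the block 68 points lie below 0, and 10 intervals do not reach it.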

How the data were processed

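The deposited table holds 1 intensity per probe set and array on a linear scale, already summarised and brought to a similar level by the authors. How this was done is not given in the labels or the table header. There were 34760 probe sets, of which 21640 had 1 gene symbol in the platform annotation, 1321 several and 11799 none, with 0 missing values. Log2 was taken of the deposited values with no pseudocount. Gene IDs of all 85 genes were found in the RefSeq table (GRCm38.p6), and 0 symbols changed. Groups came from the sample titles. The two-sided tests used limma 3.58.1 (lmFit, eBayes) under R 4.3.3, adjusted by Benjamini-Hochberg over all 34760 probe sets with a threshold of 0.05. They were run without a block and, as an alternative, blocked on the array set. The test was tried on simulated data. The genes, lists, array sets and alternatives were chosen with earlier results of these data known. Genes chosen to be given by sample were, per complex, that with the highest mean and those with the largest and smallest differences between array sets. Added to these were the restricted isoforms with their partners, the 6 smallest p-values per direction and genes with probe sets of opposite sign. Of all these, Ndufb6, Atp5h and Atp5j are given in part and Atp5g1 by its differences alone. A few others (Ndufb9, Ndufs5 and Uqcr11, with the smallest p-values under the block) were added after their values were seen. Protein sequences were not used here. The number of arrays limits the precision.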

Additional observations from a re-analysis of the deposited data

Results flagged for a closer look

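In the 4 reconRAG1KO samples, 1 sample stood far from the other 3 for 16 of the 37 genes chosen to be given by sample. This was judged by the gap to its neighbour as a share of the whole range (cutoffs of this kind pass about 1 in 20 groups by chance). The choice of genes had already set replicate 4 apart, and many were named for that difference, so these shares describe it and test nothing. Replicate 4 was the lowest in 14 of them. In complex IV the share was 0.966 for Cox6a1, 0.951 for Cox7b, 0.924 for Cox8a, 0.92 for Cox4i1, 0.902 for Cox7a2 and 0.88 for Cox6b1. In complex I it was 0.975 for Ndufab1, 0.947 for Ndufb6 and 0.877 for Ndufc2. In complex III it was 0.969 for Uqcrb, 0.892 for Uqcrh and 0.871 for Uqcrq, and in complex V 0.947 for Atp5md and 0.94 for Atp5g2. Replicate 4 was the highest for the isoforms Cox6b2 (1.0) and Cox8b (0.872). For the median deviation of all 85 genes the share was 0.901.

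In 3 genes the array of the pair moved opposite ways in the groups, and the difference was not tested. Against the other replicates of its group, Atp5l differed by -0.62 in reconRAG1KO replicate 4 and 0.17 in reconSCID replicate 2, Cox8c by -0.32 and 0.44, and Ndufaf6 by -0.62 and 0.12.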

How the results depend on the processing

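No gene of the 85 was called for reconSCID against reconRAG1KO by limma under any setting that allows a test, also with array weights, which called 57 probe sets in all. The median difference between the array sets (-1.06) became -0.84 after quantile normalization, -1.17 with array medians centred and -1.30 over subunits of wide expression alone, a choice made after seeing the data. Centring moved the median of all genes from 0.12 to 0.01. Respiratory chain genes above in both arrays numbered 6 as deposited, 9 after quantile normalization and 2 with array medians centred. Genes below in both arrays numbered 64 after quantile normalization, 76 with array medians centred, 63 of 68 among subunits of wide expression and 71 to 76 when 1 sample was left out, and the median then ran from -1.12 to -1.04. The group median (-0.17) ran from -0.44 to 0.18 when 1 sample was left out. Some small positive differences turned negative. Atp5l was -0.19 by the mean of its probe sets, -0.09 with the replicate number as a block, and -0.14 in the 5 arrays and with array weights. Ndufaf6 was -0.08 with the replicate number as a block, -0.12 in the 5 arrays and -0.14 with array weights. Cox8c was -0.02 in the 5 arrays and -0.00 with array weights, and Cox6b2 -0.04 in the 5 arrays. Leaving out 1 sample gave -0.09 to 0.19 for Atp5l, -0.08 to 0.17 for Ndufaf6 (0.21 at most when blocked on the array set) and -0.06 to 0.11 for Cox6b2. The cause was not tested. Samples with the same replicate number deviated together at r = 0.472, -0.508 and 0.314, so the numbers are not shown to pair samples. With the replicate number as a block the group median was -0.44, 77 genes were lower and 0 were called.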
